A study of Mus musculus with 8 samples.

Results

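The proteasome genes described here are the 43 genes, of 22558 in the deposited fragment table, whose symbols are Psma, Psmb, Psmc, Psmd or Psme followed by a number. They were taken by symbol alone. They comprise 36 constitutive subunits and partners, the 5 genes of the immunoproteasome and its activator (Psmb8, Psmb9, Psmb10, Psme1 and Psme2), and 2 genes known for a restricted tissue, Psma8 of testis and Psmb11 of thymus. RNA-seq was done on 8 mouse libraries, 2 biological replicates for each of 4 groups, and the design text speaks of duplicate experiments. In 3 groups the cells were sorted as positive for fibroblast activation protein (FAP), a surface protease of stromal cells, after dissociation of the tissue they came from, which was visceral adipose, skeletal muscle or pancreas. In the remaining group, embryonic cells without FAP were sorted, kept in culture over 3 passages and checked for FAP by another sort; the labels name them FAP negative MEFs (mouse embryonic fibroblasts). Strain, genotype, age and the number of animals per library are not given in the labels used here. Every difference from MEFs below is therefore also one between cells taken from tissue and cultured embryonic cells, and FAP, culture and origin cannot be told apart.

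The proteasome is the protease that degrades ubiquitin-tagged proteins. Its core particle is a barrel of alpha and beta rings, and the beta subunits Psmb5, Psmb6 and Psmb7 carry the cutting sites. The regulatory particle caps the barrel: a base with Psmc ATPases unfolds the substrate, and Psmd proteins recognise it, remove its ubiquitin and scaffold the lid. Under interferon, and constantly in many immune cells, newly made cores take up Psmb8, Psmb9 and Psmb10 in place of Psmb5, Psmb6 and Psmb7, and Psme1 and Psme2 form an alternative cap. This immunoproteasome changes which peptides are cut and feeds the class I antigen pathway, in which the Tap1 and Tap2 transporter moves peptides into the endoplasmic reticulum. In the mouse genome Psmb9, Tap1, Psmb8 and Tap2 are neighbours on chromosome 17 (RefSeq, GRCm38.p6), and Psme1 and Psme2 lie on either side of Emc9 on chromosome 14.

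The promoters of Psmb8 and Psmb9 and of their constitutive counterparts are shown because the balance within these pairs differed most between the groups, and that of Psme1 because it alone among the 5 immunoproteasome windows held the interferon motif searched. Each window holds 300 bases, 250 before and 50 after the annotated start (RefSeq, GRCm38.p6), written 5′ to 3′ along the gene, with motif matches in capitals. Windows were at hand for 36 of the 43 genes, all 5 immunoproteasome genes among them, and not for Psma8, Psmb1, Psmb2, Psmb7, Psmc3, Psmd3 and Psmd7.
Psmb8, chr17:34197945-34198244, plus strand: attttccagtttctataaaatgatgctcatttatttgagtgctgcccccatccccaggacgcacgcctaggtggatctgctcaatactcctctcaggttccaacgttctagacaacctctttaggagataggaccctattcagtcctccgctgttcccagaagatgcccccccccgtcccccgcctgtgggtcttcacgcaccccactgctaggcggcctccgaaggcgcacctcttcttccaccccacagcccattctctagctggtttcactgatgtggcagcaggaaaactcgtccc
Psmb5, chr14:54617946-54618245, minus strand: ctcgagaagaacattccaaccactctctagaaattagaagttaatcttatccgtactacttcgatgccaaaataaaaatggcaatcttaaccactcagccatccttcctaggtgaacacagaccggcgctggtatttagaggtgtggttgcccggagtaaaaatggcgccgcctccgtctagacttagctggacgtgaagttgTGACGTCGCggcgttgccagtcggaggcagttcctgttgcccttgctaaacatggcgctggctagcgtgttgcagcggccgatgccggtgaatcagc
Psmb9, chr17:34187281-34187580, minus strand: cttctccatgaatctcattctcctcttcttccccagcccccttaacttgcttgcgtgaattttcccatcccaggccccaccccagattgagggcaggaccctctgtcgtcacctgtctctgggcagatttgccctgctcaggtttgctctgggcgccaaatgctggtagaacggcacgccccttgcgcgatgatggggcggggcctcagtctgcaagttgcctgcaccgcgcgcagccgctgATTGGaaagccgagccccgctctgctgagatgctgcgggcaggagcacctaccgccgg
Psmb6, chr11:70525107-70525406, plus strand: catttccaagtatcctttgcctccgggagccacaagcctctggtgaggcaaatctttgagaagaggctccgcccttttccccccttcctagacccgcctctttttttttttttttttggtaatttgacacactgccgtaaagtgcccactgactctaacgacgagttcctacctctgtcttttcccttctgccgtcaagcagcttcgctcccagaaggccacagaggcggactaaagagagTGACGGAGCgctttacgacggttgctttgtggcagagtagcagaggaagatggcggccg
Psme1, chr14:55578244-55578543, plus strand: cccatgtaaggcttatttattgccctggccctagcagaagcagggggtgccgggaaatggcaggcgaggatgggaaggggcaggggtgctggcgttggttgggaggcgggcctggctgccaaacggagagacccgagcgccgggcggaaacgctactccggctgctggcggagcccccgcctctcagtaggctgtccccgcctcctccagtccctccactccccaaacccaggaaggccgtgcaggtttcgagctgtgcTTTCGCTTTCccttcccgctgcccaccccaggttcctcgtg
The motifs were searched on both strands, and overlaps between them were allowed. The core of the interferon-stimulated response element, GAAA followed after any 2 bases by GAAA, occurred in 3.44% of all 32851 mouse windows of this length. Among the 5 immunoproteasome genes it occurred in the Psme1 window, in capitals above on its reverse strand, and among 30 constitutive genes in those of Psmb3, Psmd4 and Psmd9. TGACNNNGC, the antioxidant response core, was in 12.4% of all windows, in 0 of the 5 immunoproteasome windows and in 6 of the 30 constitutive ones, including Psmb5 and Psmb6 above. CCAAT was in 37.4% of all windows, in that of Psmb9, above on its reverse strand, and in 12 of the 30 constitutive ones. The windows of Psmb8, Psmb10 and Psme2 held none of these letters. A match describes the letters and is not evidence of a bound factor.

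The estimated fragments of a library summed to 15516319 to 27759399, and 15935 to 19720 genes had a value above 0. Levels given as CPM are fragment counts scaled to a common library total with TMM factors, the scale on which edgeR's quasi-likelihood test was run, and fold changes are on that scale. Levels given as FPKM are per length and serve to compare genes within a library. A gene was called higher or lower at a Benjamini-Hochberg adjusted p below 0.05 over the 14847 genes that passed the filter on low counts, in each of 6 comparisons. The TMM factors were 0.516 and 0.889 in adipose, 1.01 to 1.13 in muscle and pancreas, and 1.31 in each MEF library, so adipose values depend most on scaling. The sort marker Fap was at 6.09 to 46.2 FPKM in FAP+ libraries and at 1.61 and 0.328 FPKM in MEFs. The labels call the pancreas cells stellate cells; of the stellate markers, Lrat and Gfap were at 0.0217 to 0.115 FPKM there, Des at 23.2 and 21.4 FPKM and Cygb at 297 and 478 FPKM. In bulk libraries, fewer cells with a transcript and less of it per cell cannot be told apart.

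Of the 43 genes, 42 passed the filter. Psma8, the testis form of an alpha subunit, did not, at 0.0638 to 0.52 CPM across FAP+ libraries and 0.3 and 0.243 CPM in MEFs. In adipose FAP+ cells 6 of the 42 were higher than in MEFs and 14 were lower, where 26.9% of all tested genes were higher and 23.2% lower (50.1% in either direction). Muscle gave 4 higher and 21 lower, against backgrounds of 23.7% and 20.0% (43.8% in either direction). In pancreas 3 were higher and 19 lower, against 23.1% and 19.4% (42.5% in either direction). The genes called higher were immunoproteasome genes and Psmb11, and none of the 36 constitutive genes was called higher by edgeR in any of the 3 comparisons. At an unadjusted p below 0.05 that count was also 0, as it was with DESeq2, with limma on FPKM and on recovered reads. Without adipose library 2, edgeR called 3 constitutive core genes higher in adipose, Psma2, Psmb2 and Psmb3. The 3 comparisons share the same MEF libraries. Against these, 3 genes were called higher in every tissue (Psmb8, Psmb9 and Psmb10) and 12 were called lower in every tissue. Another 13 were called in 1 or 2 tissues and 14 in none. The share of all tested genes called alike in every tissue is not given here, so these counts have no background.

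**Figure D1:**
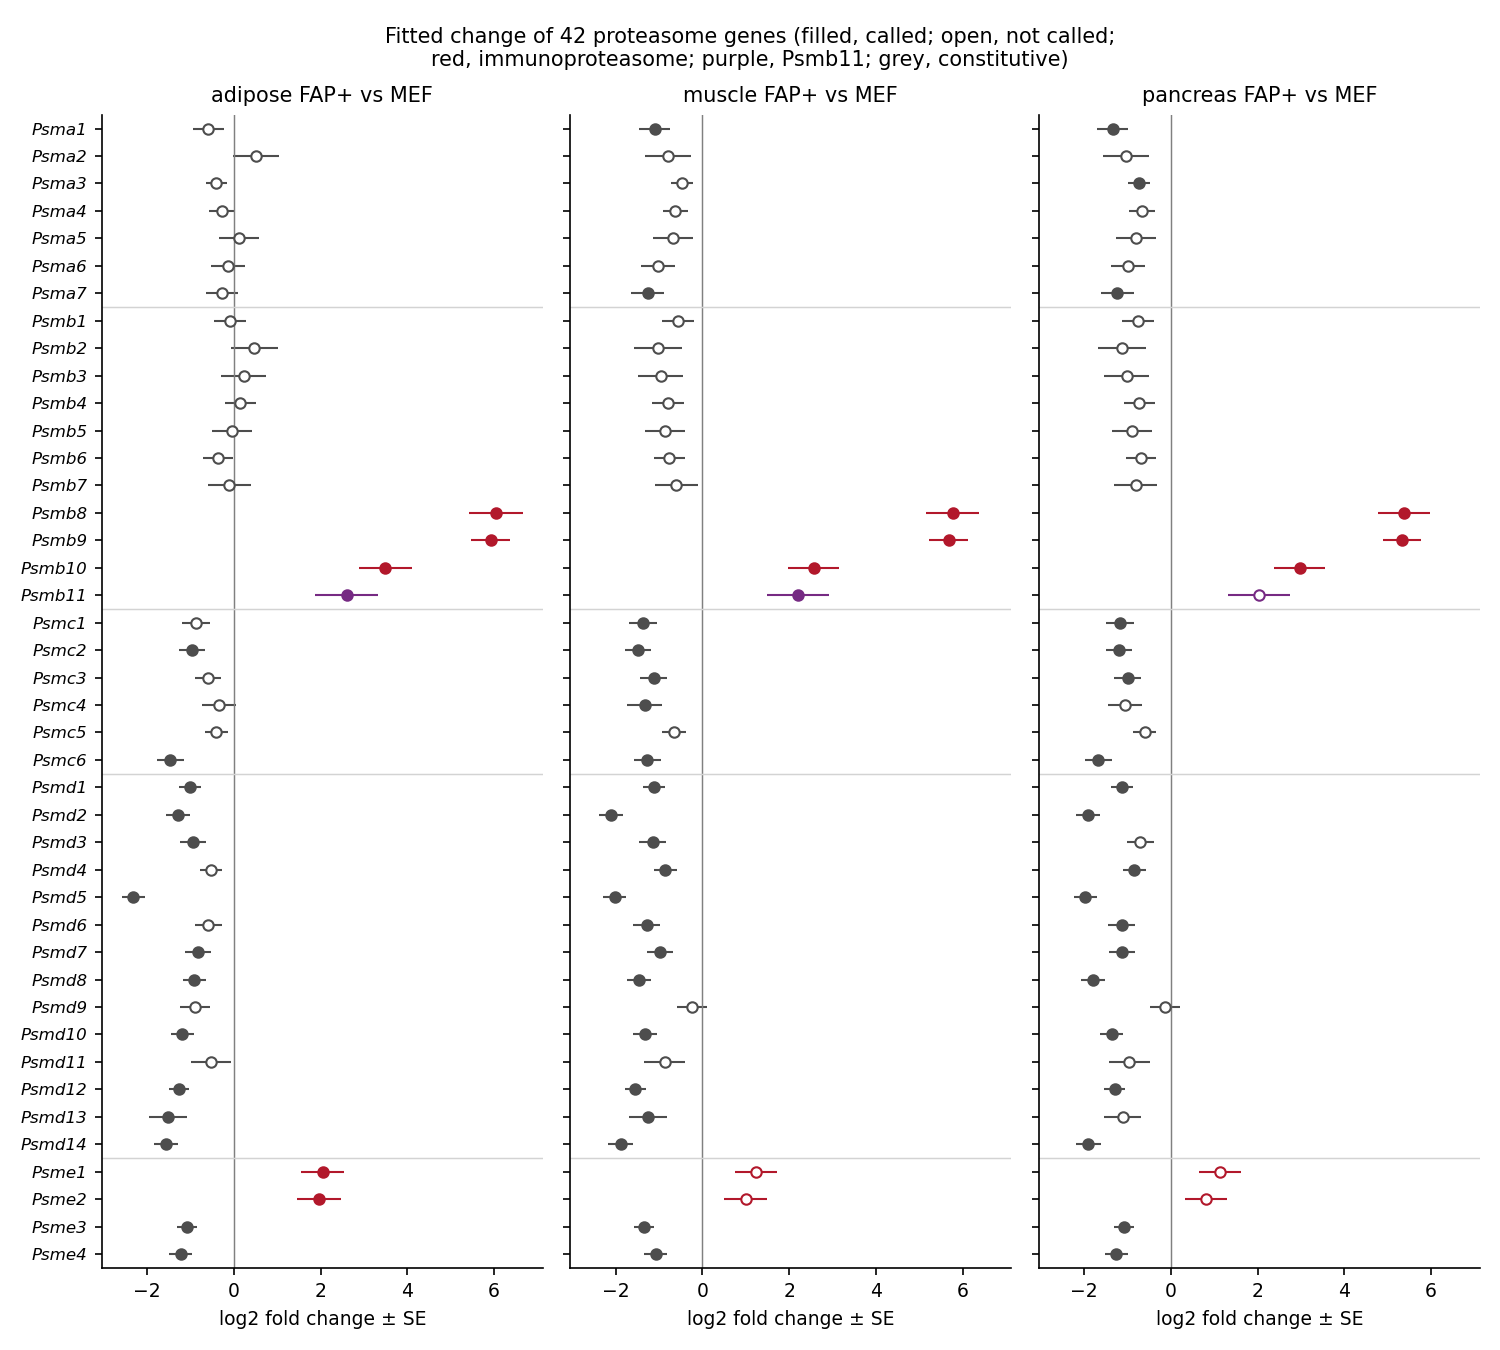
Fitted log2 fold change ± SE (x axis) of the 42 tested proteasome genes (y axis, in order of ring, base, lid and activator) in adipose, muscle and pancreas FAP+ cells against MEFs; filled points were called. Psmb8 and Psmb9 sit between 5.33 and 6.04 in all 3 panels, while the constitutive genes lie between -2.32 and 0.51.

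The counts depend on single libraries. In adipose, 12 of the 42 genes were called without MEF library 2 and 13 without MEF library 1, and 27 without adipose library 1, against 20 with all libraries. In muscle, 8 were called without muscle library 2, 11 without muscle library 1, 14 without MEF library 1 and 12 without MEF library 2, against 25. In pancreas, 10 were called without either pancreas library, 13 and 12 without MEF library 1 and 2, and 39 without either adipose library, against 22. A lone library is there assumed to vary like the other groups. The share of all tested genes called in any fit with a library left out is not given here. Such counts are therefore not read as particular to proteasome genes. Psmb8 and Psmb9 were called in all 18 alternatives of each comparison.

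Psmb8 and Psmb9 had the largest fitted changes of the family in all 3 tissues. Psmb8, which replaces the chymotrypsin-like site of Psmb5, was at 153 and 54.1 CPM in adipose, 101 and 70.2 CPM in muscle and 75.4 and 54.5 CPM in pancreas FAP+ cells, against 1.89 and 1.24 CPM in MEFs. The lowest FAP+ library exceeded the higher MEF library, which held 62.5 fragments of the gene. The fitted rise of Psmb8 over MEFs was log2 6.04 ± 0.62 in adipose, or 65.9-fold (adjusted p = 0.000258), log2 5.77 ± 0.61 in muscle, or 54.5-fold (0.000332), and log2 5.37 ± 0.60 in pancreas, or 41.3-fold (0.000429). The size depends on the scale: over the alternatives it ranged over log2 4.25 to 6.60 in adipose, 4.63 to 6.07 in muscle and 4.39 to 5.68 in pancreas, lowest with limma on log2(FPKM + 1). In FPKM Psmb8 averaged 61.2 ± 17.5 in adipose, 79.5 ± 17.9 in muscle and 66.5 ± 10.3 in pancreas, against 2.26 ± 0.773 in MEFs (SD, n = 2 each), so the order of the tissues is not that of CPM.

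Psmb9, which replaces the caspase-like site of Psmb6, was the least abundant of the 5. It was at 32.1 and 16.1 CPM in adipose, 21.6 and 19.1 CPM in muscle and 18.2 and 13.7 CPM in pancreas, against 0.39 and 0.395 CPM in MEFs, where each library held 12.8 fragments. No FAP+ library came near the MEF values. The fitted folds were 60.5 in adipose (log2 5.92 ± 0.46), 51.2 in muscle (5.68 ± 0.45) and 40.1 in pancreas (5.33 ± 0.45), at adjusted p = 8.2e-05, 0.000109 and 0.000129. Over the alternatives the change ranged over log2 3.69 to 6.32 in adipose, 4.01 to 5.85 in muscle and 3.80 to 5.50 in pancreas, again lowest with limma on log2(FPKM + 1). The FPKM means were 22.7 in adipose, 28.7 in muscle and 24.8 in pancreas, against 0.844 in MEFs, with adipose the lowest tissue on that scale.

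Psmb10, which replaces the trypsin-like site of Psmb7, was clearly present in MEFs too. Its values were 249 and 64.1 CPM in adipose, 94.5 and 71.1 CPM in muscle and 126 and 92.1 CPM in pancreas, against 13.2 and 14.7 CPM in MEFs. The groups did not overlap, and the adipose pair was wide apart. Psmb10 was higher by 11.2-fold in adipose (log2 3.49 ± 0.61), 5.93-fold in muscle (2.57 ± 0.59) and 7.81-fold in pancreas (2.97 ± 0.60), at adjusted p = 0.00284, 0.0101 and 0.00603. The adipose change was log2 2.20 without adipose library 1, 4.15 without adipose library 2, 2.34 with library totals and 2.00 with limma on log2(FPKM + 1), and passed each time. In muscle and pancreas that limma fit gave 1.87 and 2.41, and the FPKM means were 85.4 in adipose, 74.0 in muscle and 108 in pancreas, against 19.4 in MEFs. In muscle the call was lost without muscle library 1 (adjusted p = 0.0573), MEF library 1 (0.0778) or MEF library 2 (0.0629), and in pancreas without MEF library 1 (0.0575).

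The activator genes moved less and were called in adipose alone. Psme1, the alpha chain of the cap, was at 233 and 76.2 CPM in adipose, 97.5 and 79.7 CPM in muscle and 94.7 and 69.6 CPM in pancreas, against 37.9 and 37.1 CPM in MEFs. Each FAP+ library was above each MEF library. Psme1 was 4.12-fold higher in adipose (log2 2.04 ± 0.50, adjusted p = 0.0115); muscle (1.24 ± 0.48, adjusted p = 0.071) and pancreas (1.13 ± 0.48, adjusted p = 0.0937) did not pass.

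Psme2, the beta chain, was the most abundant of the 5 in CPM, at 502 and 177 in adipose, 200 and 146 in muscle and 184 and 120 in pancreas, against 78.1 and 95.7 in MEFs. The groups did not overlap in CPM, but in FPKM pancreas library 2, at 94.0, lay below MEF library 2, at 96.0. Psme2 was 3.91-fold higher in adipose (log2 1.97 ± 0.51, adjusted p = 0.0146), with log2 0.99 ± 0.49 in muscle (adjusted p = 0.138) and 0.81 ± 0.49 in pancreas (adjusted p = 0.219). The adipose calls of Psme1 and Psme2 were lost without MEF library 1 (adjusted p = 0.075 and 0.102) or MEF library 2 (0.0702 and 0.0658), with scaling by library totals (0.06 and 0.0866) and with limma on log2(FPKM + 1) (0.118 and 0.161). The adipose changes of Psme1 and Psme2 were log2 1.03 and 1.02 without adipose library 1, and 2.63 and 2.52 without adipose library 2, called each time. Without adipose library 1 or 2, whose pair is wide apart, both genes passed in muscle (adjusted p at most 0.0159) and pancreas (at most 0.0358), and in the direct tests no pair of tissues passed for either gene (adjusted p at least 0.187).

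**Figure D2:**
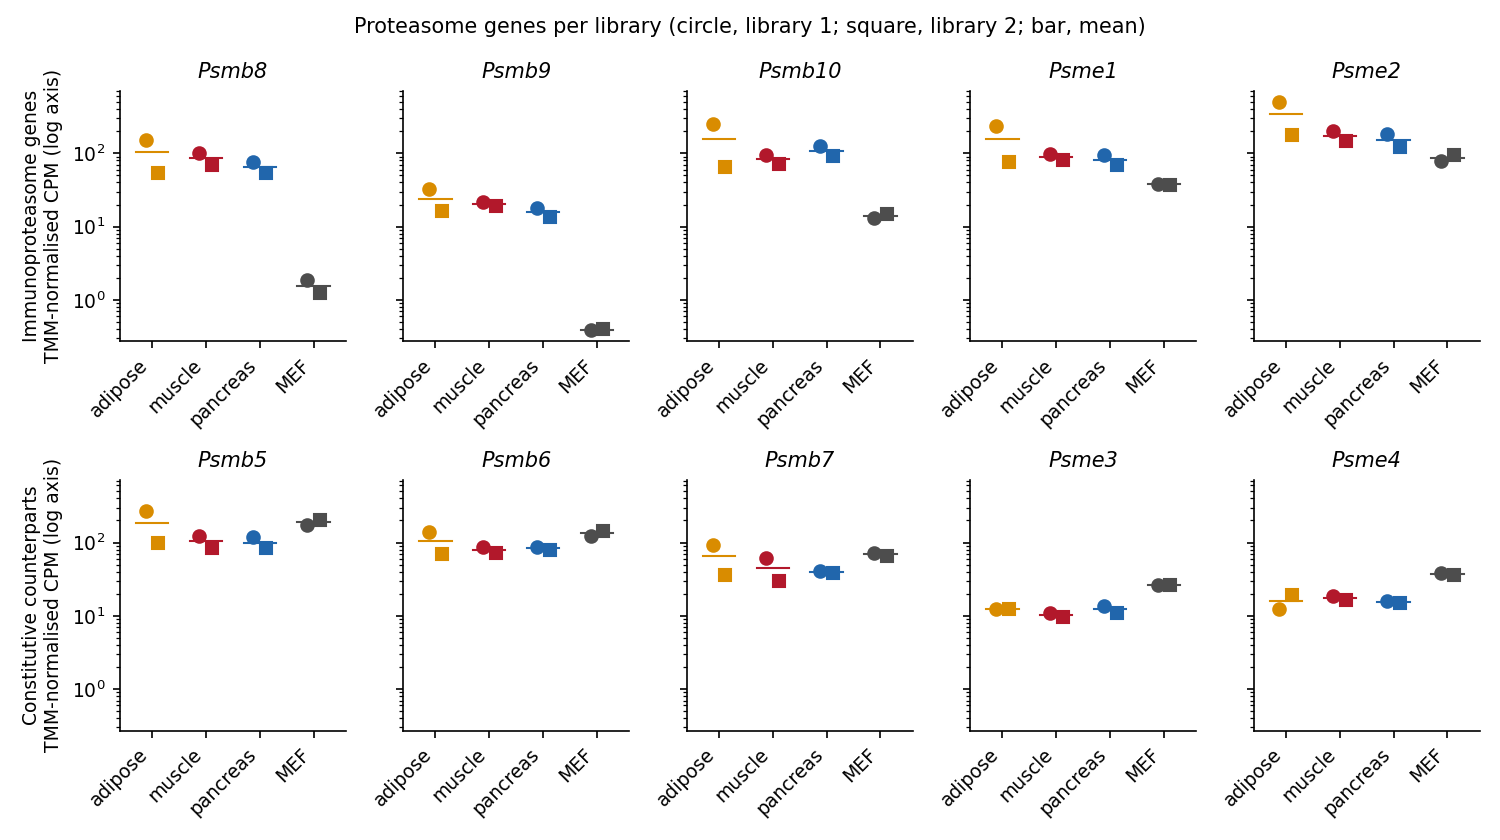
TMM-normalised CPM (log axis) per library of the 5 immunoproteasome genes (upper row) and of Psmb5, Psmb6, Psmb7, Psme3 and Psme4 (lower row) in adipose, muscle and pancreas FAP+ cells and MEFs; bars are means of 2 libraries. All FAP+ points of the upper row lie above the MEF points, while those of Psme3 and Psme4 lie below.

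The constitutive catalytic genes did not follow. Psmb5 was at 266 and 100 CPM in adipose, 122 and 85.1 CPM in muscle and 118 and 83.1 CPM in pancreas, against 174 and 202 CPM in MEFs, so that adipose library 1 was above and all other FAP+ libraries were below the MEFs. Its fitted log2 change was -0.04 ± 0.46 in adipose, -0.86 ± 0.46 in muscle and -0.90 ± 0.46 in pancreas (adjusted p = 0.953, 0.167 and 0.151). Psmb6 ranged over 69.5 to 138 CPM in FAP+ libraries, against 123 and 145 CPM in MEFs, and Psmb7 over 29.4 to 93.5 CPM, against 73.0 and 65.7 CPM. Their log2 changes were between -0.82 and -0.11 (adjusted p 0.112 to 0.872). Without adipose library 1 or 2, Psmb5 and Psmb6 passed as lower in muscle (adjusted p at most 0.021) and pancreas (at most 0.0174), and without adipose library 1 Psmb6 passed in adipose too (log2 -0.95, 0.0151). On FPKM, limma called all 3 genes lower in all 3 tissues, and edgeR with library totals in place of TMM called Psmb5 and Psmb6 lower in all 3.

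The ratio of each immunoproteasome gene to its counterpart needs no scaling between libraries. It was computed on FPKM + 0.1, and 6 FAP+ libraries were tested against 2 MEF libraries by exact two-sided permutation over 28 splits. The splits treat all libraries as exchangeable, although each tissue gave 2 of the FAP+ libraries and all MEF libraries form the same group. The p-values from this test thus take libraries of the same tissue as independent, and a permutation of whole groups was not run. The ratio of Psmb8 to Psmb5 was 0.412 and 0.385 in adipose, 0.591 and 0.588 in muscle and 0.456 and 0.468 in pancreas, against 0.00794 and 0.0046 in MEFs. Psmb8 FPKM was thus 0.385 to 0.591 of Psmb5 FPKM in FAP+ cells and at most 0.00794 of it in MEFs, a mean shift of log2 6.30, or 78.9-fold (exact permutation p = 0.0357).

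The ratio of Psmb9 to Psmb6 was 0.300 and 0.300 in adipose, 0.325 and 0.339 in muscle and 0.269 and 0.221 in pancreas, against 0.00445 and 0.00385 in MEFs, a shift of log2 6.13. Psmb10 exceeded Psmb7 in every FAP+ library, with ratios of 2.03 and 1.37 in adipose, 1.17 and 1.84 in muscle and 2.35 and 1.85 in pancreas, against 0.139 and 0.172 in MEFs, a shift of log2 3.48. Relative to Psme3, the constitutive nuclear activator, Psme1 had ratios of 48.9 and 16.2 in adipose, 23.6 and 21.4 in muscle and 18.5 and 16.5 in pancreas, against 3.88 and 3.75 in MEFs. Psme2 to Psme3 was 16.4 to 60.7 in FAP+ libraries, against 4.61 and 5.58 in MEFs. In mean FPKM, Psme1 was at 113, 103 and 105 in adipose, muscle and pancreas, against 67.7 in MEFs. Psme2 was at 144, 116 and 112, against 90.1. Psme3 was at 3.99, 4.47 and 5.91, against 17.6, so on this scale most of the shift in both activator ratios lay in Psme3. On the TMM scale the fitted log2 changes in adipose, muscle and pancreas were 2.04, 1.24 and 1.13 for Psme1 and 1.97, 0.99 and 0.81 for Psme2. Those of Psme3 were -1.08, -1.35 and -1.09. The larger part in adipose thus lay in Psme1 and Psme2 there, and the split depends on the scale.

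For all 5 pairs, each FAP+ library was above both MEF libraries. The exact p was 0.0357 for each, before and after adjustment over the 5 pairs, the smallest that 28 splits can give. That value counts libraries, not tissues, as the replicates. Without 1 MEF library the smallest possible p is 0.143, and each pair had that value with its direction kept. By tissue the shift for Psmb8 over Psmb5 was log2 6.04 in adipose, 6.61 in muscle and 6.26 in pancreas, and that for Psme2 over Psme3 was 2.84 in adipose, 2.31 in muscle and 1.86 in pancreas. An exact permutation of 2 libraries against 2 cannot pass, and the shifts by tissue are given as values without a test.

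**Figure D3:**
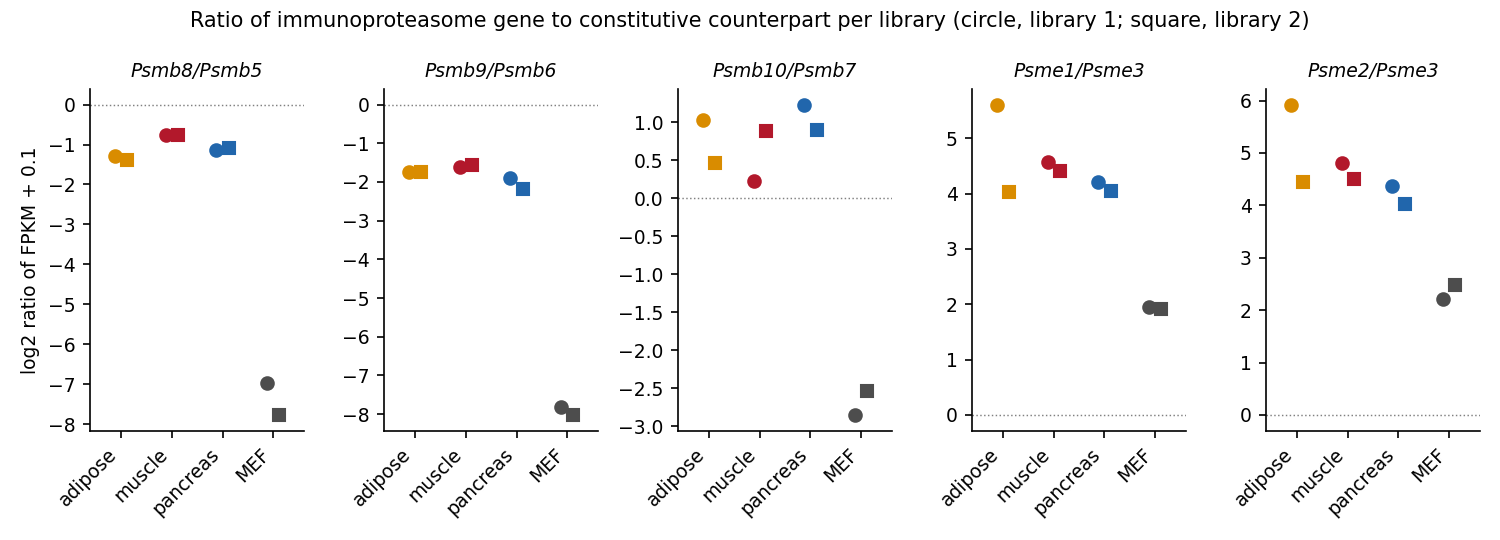
Log2 ratio of FPKM + 0.1 of each immunoproteasome gene to its constitutive counterpart in the 8 libraries (each panel has its own y axis). In every panel the 6 FAP+ points stand above the 2 MEF points, by 6.30 for Psmb8/Psmb5 and by 2.34 for Psme2/Psme3 on average.

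Among the 6 catalytic beta genes, Psmb8, Psmb9 and Psmb10 together made up 40.3% and 34.4% of the summed FPKM in adipose, 39.1% and 40.9% in muscle and 41.2% and 38.8% in pancreas FAP+ cells, against 3.05% and 2.89% in MEFs. The share thus spanned 34.4% to 41.2% over the 6 FAP+ libraries, with no tissue apart from the others. Of the summed FPKM of the constitutive and immunoproteasome genes, the 5 immunoproteasome genes took 13.3% to 19.4% in FAP+ libraries, against 2.84% and 2.79% in MEFs. These are shares of transcript, and amplification from the poly(A) tail can weigh genes unequally within a library.

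**Figure D4:**
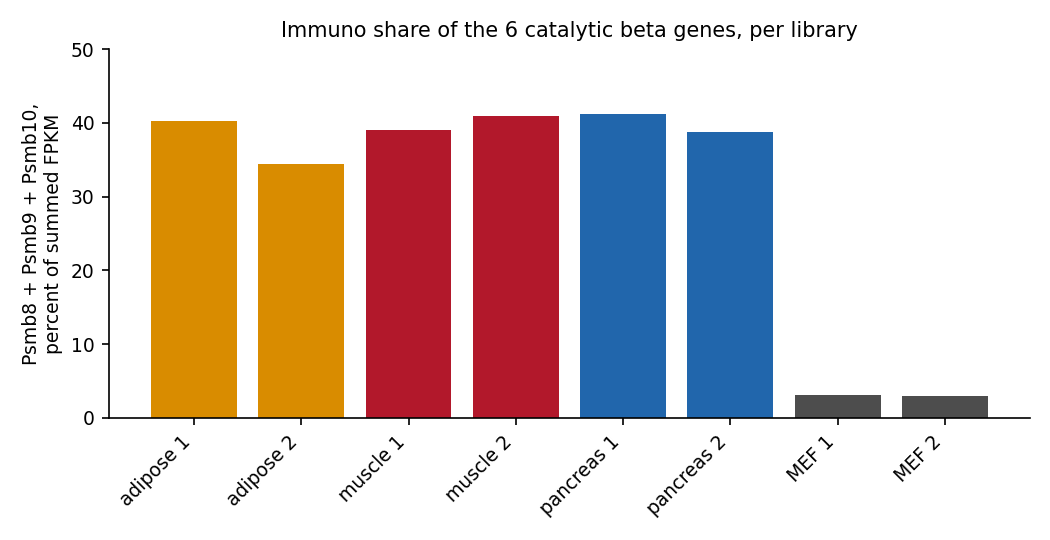
Share of Psmb8, Psmb9 and Psmb10 in the summed FPKM of the 6 catalytic beta genes (y axis, percent), 1 bar per library. The 6 FAP+ bars stand at 34.4% to 41.2% and the 2 MEF bars at 3.05% and 2.89%.

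Psmb11, the catalytic subunit of thymic epithelium and the neighbour of Psmb5 on chromosome 14, was low throughout. It was at 5.64 and 1.83 CPM in adipose, 2.49 and 3.09 CPM in muscle and 3.13 and 1.87 CPM in pancreas, against 0.3 and 0.911 CPM in MEFs, with 35.8 to 74.4 fragments per FAP+ library and 9.81 and 30.2 in MEFs. The FAP+ values lay above the MEF values. It was called higher in adipose (log2 2.60 ± 0.72, adjusted p = 0.0195) and muscle (2.20 ± 0.71, adjusted p = 0.0385), with 2.04 ± 0.71 in pancreas (adjusted p = 0.0512). Without MEF library 1 neither call held (adjusted p = 0.115 in adipose and 0.195 in muscle), nor did they without adipose library 1 in adipose (0.0831), or without muscle library 1 (0.102), muscle library 2 (0.155), pancreas library 1 (0.0667) or pancreas library 2 (0.0633) in muscle. In pancreas it passed without adipose library 1 (0.0178) or 2 (0.0149). Library totals (0.0719 in adipose and 0.0502 in muscle) and limma on log2(FPKM + 1) (0.121 and 0.0691) did not call it.

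Many constitutive genes were lower than in MEFs, and most of those that edgeR called with all libraries belonged to the regulatory particle. Lower calls took 38.9% of the 36 constitutive genes in adipose (14 genes), 58.3% in muscle (21) and 52.8% in pancreas (19), above the background shares given. Their median log2 change was -0.59, -1.09 and -1.07 in adipose, muscle and pancreas, where the median of all tested genes was 0.05, 0.03 and 0.02. In muscle and pancreas all 36 fitted changes were below 0, and in adipose 31 were. Summed over the 36 genes, FPKM was 1810 to 2286 in FAP+ libraries and 6087 and 6360 in MEFs. FPKM is not centred between the groups, so part of that gap lies in the scale. With limma on log2(FPKM + 1) over genes at 1 FPKM or more in 2 libraries, the median of all genes was log2 -0.929, -0.59 and -0.465. That of the constitutive genes was -1.751, -1.684 and -1.502 in adipose, muscle and pancreas. Psmb4, a beta subunit without a cutting site, was the highest of the 36 in every library, at 148 to 213 FPKM in FAP+ cells and 424 and 445 FPKM in MEFs, and Psme4 the lowest, at 1.13 to 3.26 FPKM and 10.7 and 9.57 FPKM.

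In the core particle, lower calls among the 14 constitutive genes numbered 0 in adipose, 2 in muscle (Psma1 and Psma7) and 3 in pancreas (Psma1, Psma3 and Psma7), 14.3% and 21.4% in muscle and pancreas, near or below the background. All were alpha ring genes, which gate the barrel. Psma1 had a 2.15-fold lower level in muscle than in MEFs (adjusted p = 0.0376), and in pancreas the decrease was 2.54-fold (0.0188). The muscle calls of Psma1 and Psma7 and the pancreas calls of all 3 were lost without pancreas library 1 or 2 and without MEF library 2, with adjusted p up to 0.223; muscle library 1 or 2 and MEF library 1 also ended most of them. The Psma3 call was lost in 11 of 18 alternatives, also with RLE scaling (0.0571), no filter (0.0579), the 5 CPM filter (0.0659), the replicate block (0.0606) and recovered reads (0.0877). Of the 7 constitutive beta genes edgeR called 0 in each tissue, with 0 at an unadjusted p below 0.05 and 0 by DESeq2. Limma on log2(FPKM + 1), by contrast, called 6 lower in adipose and all 7 in muscle and pancreas. Recovered reads gave 1, 3 and 5. With adipose library 1 or 2 left out, edgeR called most of the 14 core genes lower in muscle and pancreas. The low core counts in muscle and pancreas thus depend on the adipose pair. The median log2 change of the 14 core genes was -0.10 in adipose, -0.79 in muscle and -0.86 in pancreas.

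The adipose value rests on library 1. All 14 core genes were higher in adipose library 1 than in library 2 in CPM, by a median log2 of 1.10, and Psma2, for example, was at 304 and 84.5 CPM, against 121 and 151 CPM in MEFs. In FPKM the same median was 0.19. In the 20 regulatory particle genes the median was 0.10 in CPM and -0.82 in FPKM, so the 2 adipose libraries differed in the balance of core and regulatory genes on both scales. Muscle libraries differed by medians of 0.43 (core) and 0.21 (regulatory) in CPM, and pancreas libraries by 0.27 and 0.21. Under TMM 5 of the 36 constitutive genes were above 0 in adipose, and under library totals or limma on FPKM none was, so the direction of the core genes in adipose depends on the scaling.

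In the regulatory particle, 12 of the 20 genes were lower in adipose, 17 in muscle and 14 in pancreas, which is 60.0%, 85.0% and 70.0%. Their median log2 change was -0.93, -1.28 and -1.14 in that order of tissues. Among the 6 base ATPases, 2, 5 and 4 were called lower. Psmc6 was at 24.4 and 38.7 CPM in adipose, 43.1 and 29.4 CPM in muscle and 28.5 and 26.2 CPM in pancreas, against 88.2 and 86.7 CPM in MEFs, without overlap. It was 2.77-fold lower in adipose (adjusted p = 0.00652), 2.42-fold in muscle (0.0128) and 3.2-fold in pancreas (0.00433), and the muscle call was lost without muscle library 2 (0.115), MEF library 1 (0.0623) or MEF library 2 (0.0593). Psmc2 was lower in all 3 as well, by 1.96-, 2.8- and 2.29-fold in adipose, muscle and pancreas. That call was lost in 6 of 18 alternatives in adipose (any muscle, pancreas or MEF library left out, adjusted p up to 0.0954), in 1 in muscle (without muscle library 2, 0.0704) and in 4 in pancreas (any pancreas or MEF library left out, up to 0.118).

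Among the 14 Psmd genes 10, 12 and 10 were called lower in adipose, muscle and pancreas. Psmd5, a chaperone that helps assemble the base rather than a subunit of the finished particle, had the largest decrease in adipose and pancreas. It was at 9.91 and 14.0 CPM in adipose, 15.5 and 13.9 CPM in muscle and 16.2 and 14.3 CPM in pancreas, against 62.4 and 57.2 CPM in MEFs. The libraries within each group were close, and the groups did not overlap. Psmd5 was lower by 4.99-fold in adipose (log2 -2.32 ± 0.27), 4.06-fold in muscle (-2.02 ± 0.27) and 3.92-fold in pancreas (-1.97 ± 0.26), at adjusted p = 0.000453, 0.000842 and 0.000969. Psmd10 (gankyrin), another base chaperone, was 2.29-, 2.51- and 2.57-fold lower, which was lost in muscle without muscle library 2 (0.0635) and in pancreas without pancreas library 1 (0.0575), whereas Psmd9, the remaining chaperone of this kind, was not called in any tissue (log2 -0.89, -0.25 and -0.13; adjusted p = 0.0652, 0.584 and 0.781).

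Psmd2, the large scaffold of the base that binds ubiquitin-like domains, had 245 and 234 CPM in adipose, 136 and 136 CPM in muscle and 174 and 138 CPM in pancreas, against 654 and 523 CPM in MEFs. Its log2 change was -1.30 ± 0.28 in adipose, -2.11 ± 0.28 in muscle and -1.92 ± 0.28 in pancreas, that is 2.45-, 4.32- and 3.78-fold lower (adjusted p = 0.00672, 0.000944 and 0.00146). All 6 FAP+ values were below the lower MEF value. Psmd14, the lid deubiquitinase that strips ubiquitin off substrates, had 36.4 and 31.8 CPM in adipose, 32.9 and 21.5 CPM in muscle and 29.0 and 24.9 CPM in pancreas, against 105 and 96.2 CPM in MEFs. It was 2.96-, 3.71- and 3.74-fold lower in adipose, muscle and pancreas (adjusted p = 0.00317, 0.00158 and 0.00159). Psmd12, a lid scaffold, had 26.9 to 36.4 CPM in FAP+ libraries, against 92.0 and 75.4 CPM in MEFs, and was 2.42-, 2.93- and 2.47-fold lower (adjusted p at most 0.00389). Psmd2, Psmd5, Psmd12 and Psmd14 were called lower in all 18 alternatives of each comparison.

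The lid subunit Psmd8 was at 129 and 119 CPM in adipose, 92.7 and 76.2 CPM in muscle and 74.5 and 59.5 CPM in pancreas, against 209 and 256 CPM in MEFs. It was 1.88-, 2.75- and 3.47-fold lower (adjusted p = 0.0236, 0.004 and 0.00171), and lost the call in adipose without MEF library 1 (0.0506) or 2 (0.115) and in muscle without muscle library 2 (0.0529). Psmd13, also of the lid, was at 21.2 and 59.4 CPM in adipose, which is a wide spread, and at 47.7 to 55.6 CPM in muscle and pancreas, against 109 and 123 CPM in MEFs. It passed in adipose (2.87-fold, adjusted p = 0.0226) and muscle (2.39-fold, 0.0486), with 2.17-fold in pancreas (0.071; 0.00134 and 0.00114 without adipose library 1 and 2). The adipose call was lost without MEF library 1 (0.0743) or 2 (0.0909), and the muscle call in 12 of 18 alternatives, among them any muscle, pancreas or MEF library left out (up to 0.194). Psmd1, the other large base scaffold, and Psmd7, the partner of Psmd14, were lower in all 3 tissues, Psmd1 by 2.03- to 2.2-fold and Psmd7 by 1.78- to 2.2-fold. Psmd1 lost its call without MEF library 2 in each tissue (0.0693, 0.0623 and 0.0575) and without a library of the tissue itself in muscle and pancreas (up to 0.0918), and Psmd7 without any 1 pancreas or MEF library in each tissue, without either muscle library in adipose and muscle, and in adipose without adipose library 2 (up to 0.205). Psmd11 had unlike MEF libraries, at 30.0 and 91.6 CPM, and was not called.

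The constitutive activators fell as well. Psme3 was at 12.3 and 12.4 CPM in adipose, 10.8 and 9.78 CPM in muscle and 13.6 and 11.1 CPM in pancreas, against 26.1 and 26.3 CPM in MEFs, and the FAP+ values did not reach the MEF values. Its log2 change was -1.08 ± 0.24 in adipose, -1.35 ± 0.24 in muscle and -1.09 ± 0.24 in pancreas (adjusted p = 0.0076, 0.00336 and 0.00852); the pancreas call was lost without pancreas library 2 (0.0766). Psme4, a large cap known for histone degradation, was at 12.4 and 19.0 CPM in adipose, 18.4 and 16.6 CPM in muscle and 15.8 and 15.1 CPM in pancreas, against 37.9 and 36.3 CPM in MEFs. It was 2.35-, 2.12- and 2.4-fold lower (adjusted p = 0.00767, 0.0143 and 0.00798). Its muscle call was lost without muscle library 1 (0.0767) or 2 (0.11) or MEF library 1 (0.0714) or 2 (0.06), and its pancreas call without pancreas library 1 (0.0577) or 2 (0.0645).

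No proteasome gene was called between FAP+ populations by edgeR, where 6.12% of all tested genes were called in muscle against adipose, 9.05% in pancreas against adipose and 3.67% in pancreas against muscle. By direction those shares were 2.34% higher and 3.78% lower, 3.32% higher and 5.73% lower, and 1.54% higher and 2.14% lower. At an unadjusted p below 0.05, 6 of the 42 were lower in muscle than adipose, 7 were lower in pancreas than adipose and 0 differed between pancreas and muscle. DESeq2 called 2, 3 and 0 of them lower. The 5 immunoproteasome genes had log2 differences of -0.97 to -0.24 in muscle against adipose, -1.16 to -0.52 in pancreas against adipose and -0.40 to 0.40 in pancreas against muscle, with adjusted p from 0.187 to 0.986. The medians of the 36 constitutive genes were -0.43, -0.37 and 0.00 in these comparisons. Without adipose library 2, edgeR called 22 of the genes in each comparison with adipose, 20 lower and 2 higher, and without adipose library 1 it called 0.

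The genes around the proteasome were taken from 3 lists. In the class I antigen list, 8 of 12 genes in adipose, 8 in muscle and 6 in pancreas were called higher than in MEFs, and 1 in each, the chaperone Canx, was called lower; of all tested genes 26.9%, 23.7% and 23.1% were higher. The Canx call was lost without MEF library 1 in each tissue (adjusted p = 0.0865, 0.0898 and 0.175), without either muscle library in muscle and pancreas, and without either pancreas library in pancreas. The list medians were log2 2.32, 1.93 and 1.5. Tap2, the neighbour of Psmb8, was at 11.2 and 50.9 FPKM in adipose, 51.4 and 51.3 FPKM in muscle and 50.7 and 47.7 FPKM in pancreas, against 4.76 and 3.69 FPKM in MEFs. It was higher by log2 3.77 ± 0.44, 4.24 ± 0.45 and 4.04 ± 0.45 (adjusted p = 0.000488, 0.000354 and 0.000429). Tap1, which lies between Psmb9 and Psmb8, was higher by log2 2.32, 1.39 and 1.59 (adjusted p at most 0.00414; 0.104 with limma on log2(FPKM + 1) in muscle), and Tapbp, which bridges the transporter and class I molecules, by 2.48, 2.82 and 2.35 (0.116 with limma in adipose). The class I heavy chain genes H2-K1 (5.23, 4.27 and 3.38) and H2-D1 (4.84, 4.27 and 3.35) were higher in all 3, but share near-identical sequence with other class I genes, so their fragments may be split. In pancreas against adipose both were lower (log2 -1.85 and -1.49, adjusted p = 0.0293 and 0.0398), which was lost without any 1 muscle, pancreas or MEF library (up to 0.262). Tapbpl, a relative of Tapbp that edits class I peptides, was higher in adipose (2.96, adjusted p = 0.00436) and muscle (1.9, 0.0254), the muscle call being lost without any 1 muscle, pancreas or MEF library (up to 0.161). Nlrc5, the transactivator of class I genes, passed in adipose (2.31, adjusted p = 0.00955) and muscle (1.95, 0.0205) with 0.98 in pancreas (0.179); without MEF library 1 or 2 neither call held (up to 0.112), nor the muscle call without muscle library 1 (0.0696) or 2 (0.122).

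In the list of interferon signalling, 14 of 16 genes were tested, and 11, 10 and 9 were higher in adipose, muscle and pancreas, with 0 lower (medians log2 2.54, 2.45 and 2.25), where 26.9%, 23.7% and 23.1% of all tested genes were higher and 23.2%, 20.0% and 19.4% lower. Irf1, the transcription factor known to drive Psmb9 and Tap1, was at 185 and 420 FPKM in adipose, 264 and 331 FPKM in muscle and 91.6 and 73.1 FPKM in pancreas, against 16 and 12.8 FPKM in MEFs. It was higher by log2 5.41 ± 0.39, 5.0 ± 0.38 and 3.01 ± 0.35 (adjusted p = 6.24e-05, 9.16e-05 and 0.000502). Irf1 also differed between tissues, lower in pancreas than in adipose (log2 -2.40, adjusted p = 0.00733) and muscle (-1.99, 0.0219). Limma on log2(FPKM + 1) called neither difference (adjusted p = 0.0719 and 0.101), and library totals did not call that against muscle (0.0687). The Irf1 calls between tissues were lost without pancreas library 1 (adjusted p = 0.0805 and 0.165) or 2 (0.108 and 0.225), and that against muscle without any muscle or MEF library as well. Irf7 (6.91, 6.0 and 5.66) and the feedback inhibitor Socs3 (6.29, 5.43 and 5.18) were higher in all 3 tissues. Irf8, a transcription factor known above all from myeloid and B cells, was at 4.02 and 7.24 FPKM in adipose, 0.881 and 1.53 FPKM in muscle and 4.77 and 6.09 FPKM in pancreas, against 0.0477 and 0.0439 FPKM in MEFs. With 35.1 to 457 fragments per FAP+ library and 2.46 and 2.41 in MEFs, it was called higher in each tissue, and no fold is given against so few fragments. It was lower in muscle than in adipose (log2 -2.66, adjusted p = 0.00698; 0.0745 without muscle library 1) and higher in pancreas than in muscle (2.01, 0.0182), which was lost without any 1 muscle or pancreas library (up to 0.148). Ifng, the gene of interferon-gamma, was at 0.0182 to 0.282 FPKM in FAP+ libraries, or 0.492 to 5.46 fragments, and listed at 0 in MEFs. Ifnb1 held at most 2.99 fragments in any library. Neither gene passed the filter on low counts, and no difference is read from them.

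The list of assembly, regulation and ubiquitin shuttling held 28 genes, of which edgeR called 4 higher and 9 lower in adipose, 1 higher and 8 lower in muscle, and 7 lower in pancreas. These shares of 46.4%, 32.1% and 25.0% called in either direction were below the 50.1%, 43.8% and 42.5% of all tested genes. Higher calls took 14.3%, 3.57% and 0%, against 26.9%, 23.7% and 23.1% of all tested genes. Lower calls took 32.1%, 28.6% and 25.0%, against 23.2%, 20.0% and 19.4%. The list medians were log2 -0.15, -0.53 and -0.56, where those of all tested genes were 0.05, 0.03 and 0.02. These counts are not read as a result about the list, and its members are given as single genes. The deubiquitinases that dock on the regulatory particle were lower: Usp14 by 5.66-, 4.63- and 4.62-fold (adjusted p = 0.00091, 0.00165 and 0.00172) and Uchl5 by 4.03-, 3.23- and 4.13-fold in adipose, muscle and pancreas. Usp14 was at 1.05 to 4.19 FPKM in FAP+ libraries and 30.0 and 20.2 FPKM in MEFs. Txnl1, a thioredoxin on the same particle, and the ubiquitin shuttle Rad23b were lower in all 3 tissues, Txnl1 by 3.51- to 4.31-fold and Rad23b by 2.63- to 3.15-fold. The Txnl1 call was lost in muscle without either muscle library or MEF library 1 (up to 0.1), and in pancreas without pancreas library 1 (0.098) or MEF library 1 (0.0724). In adipose the polyubiquitin gene Ubb (2.72, adjusted p = 0.00893; 0.0674 and 0.0558 without MEF library 1 and 2) was higher. Psmg4, a chaperone of core assembly, was higher there at 69.3 and 18.8 FPKM, against 24.0 and 28.5 FPKM in MEFs (2.18, adjusted p = 0.0439), a call lost in 14 of 18 alternatives and at 0.636 without adipose library 1. Nfe2l2 and Zfand5, a stress factor and a proteasome-binding zinc finger protein, were lower in pancreas than in adipose (log2 -1.49 and -1.42, adjusted p = 0.0145 and 0.0435), Nfe2l2 not without pancreas library 1 or 2 and Zfand5 not without any 1 muscle, pancreas or MEF library (up to 0.277). Shfm1 and Adrm1, regulatory particle subunits with other symbols, were not called in any tissue. Nfe2l1, the factor known to raise proteasome genes when the proteasome is inhibited, was not called either (0.21, -0.47 and -0.57).

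**Figure D5:**
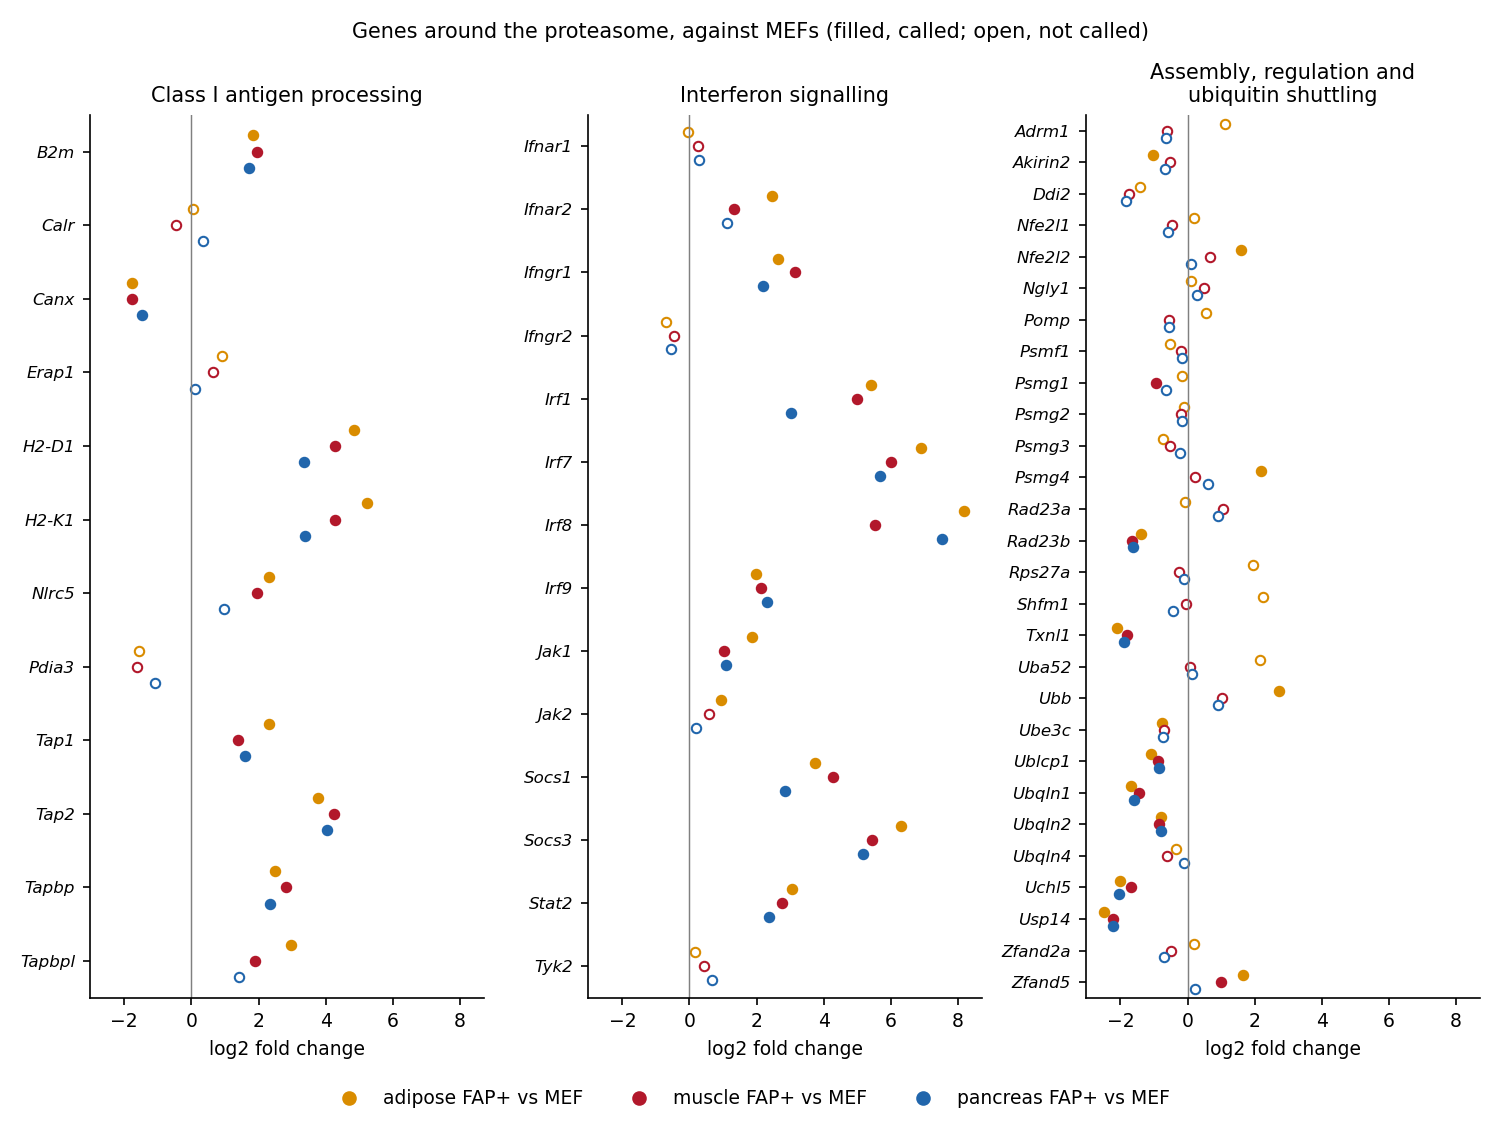
Log2 fold change (x axis) of genes in the class I antigen, interferon and assembly lists (y axis) in adipose, muscle and pancreas FAP+ cells against MEFs; filled points were called. Class I and interferon genes lie mostly to the right of 0, with medians of 1.5 to 2.54, while Usp14, Uchl5 and Txnl1 lie to the left.

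Marker genes of other cell types were set beside these values. The defining blood cell gene Ptprc was at 0.00559 to 0.0637 FPKM in all 8 libraries. The summed FPKM of 15 haematopoietic markers was 11.0 to 13.3 in adipose, 2.27 to 2.76 in muscle and 3.02 to 3.92 in pancreas, against 3.96 to 4.54 in MEFs. In MEFs most of that sum was Cd68 (2.35 and 2.61 FPKM) and Coro1a (0.936 and 1.29 FPKM), and 9 of the 15 were at 0 in each library, against 1 to 6 in FAP+ libraries. Cd79a, a B cell gene, was at 0.0638 to 0.406 FPKM in FAP+ libraries and at 0 in MEFs, and Lyz2, a myeloid gene, at 0.443 to 5.92 FPKM and 0.427 and 0.505 FPKM. The 5 endothelial markers summed to 29.5 to 63.3 FPKM in adipose, 22.8 to 34.9 in muscle and 16.4 to 21.2 in pancreas, against 1.15 to 1.74 in MEFs. Tek made up most of the sum in muscle (20.6 and 25.4 FPKM) and pancreas (14.9 and 19.6 FPKM), against 0.358 and 0.192 FPKM in MEFs. Pecam1 was at 5.16 and 19.2 FPKM in adipose, 0.696 and 3.59 FPKM in muscle and 0.258 and 0.186 FPKM in pancreas, against 0.07 and 0.0159 FPKM in MEFs, and Cdh5 at 6.95 and 8.63, 0.402 and 1.74, and 0.0537 and 0.0194 FPKM in those tissues, against 0.0494 and 0 FPKM. The 6 acinar markers summed to 59.7 to 115 FPKM in pancreas, against 2.70 to 2.73 FPKM in MEFs. The part of haematopoietic, endothelial and acinar cells in the proteasome values was not tested. For Psma5, Psmb5, Psmb6 and Psmb7, RefSeq lists 6 pseudogene copies that are not in the table, and the sources used here do not give how shared reads were counted.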

How the data were processed

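RNA was amplified with MessageAmp, which copies from the poly(A) tail and favours 3′ ends, and libraries were made with the Illumina mRNA kit, per the labels. The authors deposited a table of estimated counts (expected fragment counts after a bias adjustment, not whole numbers), a matching FPKM table and an RPKM table, per the file headers. Named without roles in the submitters' processing notes are mm9, HTSeq, edgeR, TopHat2 and Bowtie2; the bias adjustment, the strand setting and the treatment of shared reads are not given in the sources used here. Of the 14 value columns in each of these tables, 6 had no matching sample and stayed unused.

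After rounding, estimated counts went into the quasi-likelihood test of edgeR 4.0.16 (R 4.3.3; TMM factors, filterByExpr, no covariate). All 8 libraries entered 1 fit with 4 residual degrees of freedom; the common coefficient of biological variation was 33.2%. P-values were adjusted by Benjamini-Hochberg over 14847 genes per comparison, and the SE is the log2 change divided by the root of F. The edgeR p-values rest on the spread between replicate libraries pooled over the 4 groups, also those outside a comparison. The labels call the replicates biological but do not give the animals per library, so part of that spread may be technical. Partner ratios used FPKM + 0.1 and an exact permutation test (SciPy 1.17.1), which shuffled libraries and not groups. The design had been written for counts, so rounding estimated counts was the only change. Steps in the RPKM values gave whole reads for 20961 of 22609 genes (100% of their values whole within 0.01), tested as an alternative. The scripts were tested on simulated data.

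The alternatives were RLE scaling, library totals, DESeq2 1.42.0, no filter, 5 CPM in 2 libraries, the replicate block, limma 3.58.1 on log2(FPKM + 1) or log2(FPKM + 0.1), a filter at 1 FPKM, recovered reads, and each library left out. The members and lists were chosen with earlier results of these data known. Named in full were the 5 immunoproteasome genes, Psmb5, Psmb6, Psmb7, Psme3, Psme4, Psma8 and Psmb11, the 4 called members with the largest change per comparison and direction, members called alike in all 3 comparisons with MEFs, and up to 4 called genes per list; other genes named were chosen after their values were seen. Promoter windows and neighbours come from RefSeq GRCm38.p6, and no mm9 coordinate was converted. A pair of listed genes and a promoter motif are not reported here.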

Additional observations from a re-analysis of the deposited data

How the results depend on the processing

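With edgeR on all libraries 20, 25 and 22 of 42 proteasome genes were called in adipose, muscle and pancreas against MEFs. Library totals in place of TMM gave 34, 32 and 32, with 3 higher in each. They moved the median of all genes to log2 -0.85, -0.33 and -0.22 and that of the constitutive genes to -1.59, -1.46 and -1.32, and the share of higher calls among all genes to 28.8%, 43.8% and 49.5%, against 53.6%, 54.2% and 54.4%. Limma on FPKM gave 36 in adipose and 35 in pancreas with either pseudocount and with the filter at 1 FPKM, with 36 to 37 in muscle and a share of higher calls of 19.3% to 44.6%. With 1 library left out the counts ranged from 12 to 27 in adipose, 8 to 36 in muscle, 10 to 39 in pancreas, 0 to 22 in muscle against adipose and 0 to 22 in pancreas against adipose. DESeq2 gave 2 and 3 in those last comparisons, against 0, and 0 in pancreas against muscle. The share of all tested genes called under these alternatives is not given here, and the cause of these shifts was not tested.

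Psmb5 changed sign in adipose, without passing, to log2 0.051 with RLE scaling and with DESeq2, to 0.045 with the 5 CPM filter, to 0.49 without adipose library 2 and to 0.07 without MEF library 2. With 1 library left out, adipose values ranged from -0.904 to 0.488 for Psmb5, -0.95 to 0.03 for Psmb6 and -0.957 to 0.42 for Psmb7, above 0 without adipose library 2. The log2 shift of the partner ratios with 1 library left out ranged from 5.91 to 6.70 for Psmb8/Psmb5, 6.02 to 6.23 for Psmb9/Psmb6, 3.33 to 3.64 for Psmb10/Psmb7, 2.32 to 2.64 for Psme1/Psme3 and 2.09 to 2.47 for Psme2/Psme3; without a MEF library the exact p was 0.143, the smallest possible.

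Deviations of same-numbered libraries correlated between -0.156 and 0.347 over genes, highest for adipose with pancreas. With 2 libraries a group, these values do not settle whether the replicate numbers pair the libraries. With the replicate block, 21, 27 and 22 genes were called against MEFs. Of the alternative values for single named genes, 1720 kept direction and side of the threshold, 180 lost it, 67 gained it and 7 changed sign. Depth limits Psma8, Psmb11, Nlrc5, Ifng and the MEF values of Psmb9 and Irf8, which rest on few fragments, and 2 libraries a group limit all calls.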
